A study of Mus musculus with 9 samples.

Results

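Fosl1, Arc, Klf4, Nr4a1 and Ier2 are 5 immediate early genes, and their RNA was followed in mouse lung tissue after high-pressure ventilation, after injected endotoxin and in controls. They were found by the gene symbol in the annotation of the array's probes, which gave 1 probe for each gene, so 5 of the 10012 probes and of 8841 named genes. The genes were picked because they were known to stand high in overventilated lungs in these same data. Their overventilation values are therefore a description, with no test. The series is about injury that a mechanical ventilator can do to the lung. The overventilation group (3 samples) had 3 h of mechanical ventilation, with the pressure set to 25 cmH2O. The LPS group (3 samples) received lipopolysaccharide of E. coli serotype O127:BO, a component of the bacterial outer membrane, by injection at 3 mg/kg, and the control group has 3 samples. The labels name no strain, age, handling of the controls or time after LPS, and they do not say that each sample is a different mouse. P-values therefore rest on a spread between samples that may be technical.

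Immediate early genes are switched on within minutes of a stimulus by proteins already present in the cell, without new protein synthesis. Growth factors, stretch, calcium and inflammatory signals reach them through kinases of the MAPK family, which act on transcription factors such as SRF and CREB bound at their promoters. Many of the genes encode transcription factors themselves, and their RNAs are short-lived. Fosl1 encodes FRA-1, a Fos-family subunit of the transcription factor AP-1. Klf4 encodes a zinc finger factor of epithelium and vascular endothelium, and Nr4a1 the orphan nuclear receptor NUR77, found in T cells and monocytes among other cells. Ier2 encodes a small nuclear protein that growth factors induce. Arc is best known from neurons, where its product removes glutamate receptors from synapses.

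All values below are log2 of the deposited ratio, in which each probe is divided by its own mean over the 3 control arrays, so the control mean is 0 for every gene and a value of 1 is a doubling. No level of one gene against another can be read from such ratios. The arrays had been given a lowest value, called the floor here, and low signals stand at it. It was highest on overventilation array 3, where 42.4% of all probes were at the floor, against 27.8% to 39.4% on the others. On that array 110 tested probes exceeded the other 8 arrays by more than 1.5, against at most 6 on any other array. On LPS array 2, 291 probes fell below the other 8 arrays by more than 1.5, against at most 41 on any other. Of 8 markers of alveolar type II cells, which make lung surfactant, 6 were measured and all 6 were tested, among them the surfactant genes Sftpa1, Sftpc and Sftpd. None of the 5 immediate early genes had a pair of arrays at the floor, so each lay above it on at least 8 of the 9 arrays.

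On the overventilation arrays all 5 genes stood higher than on every control array and every LPS array. This held for 166 of 5710 tested probes, or 2.91%. The 3 overventilation arrays lay above the 3 controls at 9.12% of probes, below them at 10.5%, and above the 3 LPS arrays at 5.71%. Since the genes were chosen on the first of these contrasts, nothing is read from their count. The differences from control were 3.97-fold for Fosl1, 3.92-fold for Arc, 3.77-fold for Ier2, 2.66-fold for Nr4a1 and 2.59-fold for Klf4. Of all tested probes, 1.10% had a difference as large as that of Fosl1 and 3.70% one as large as that of Klf4.

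**Figure D1:**
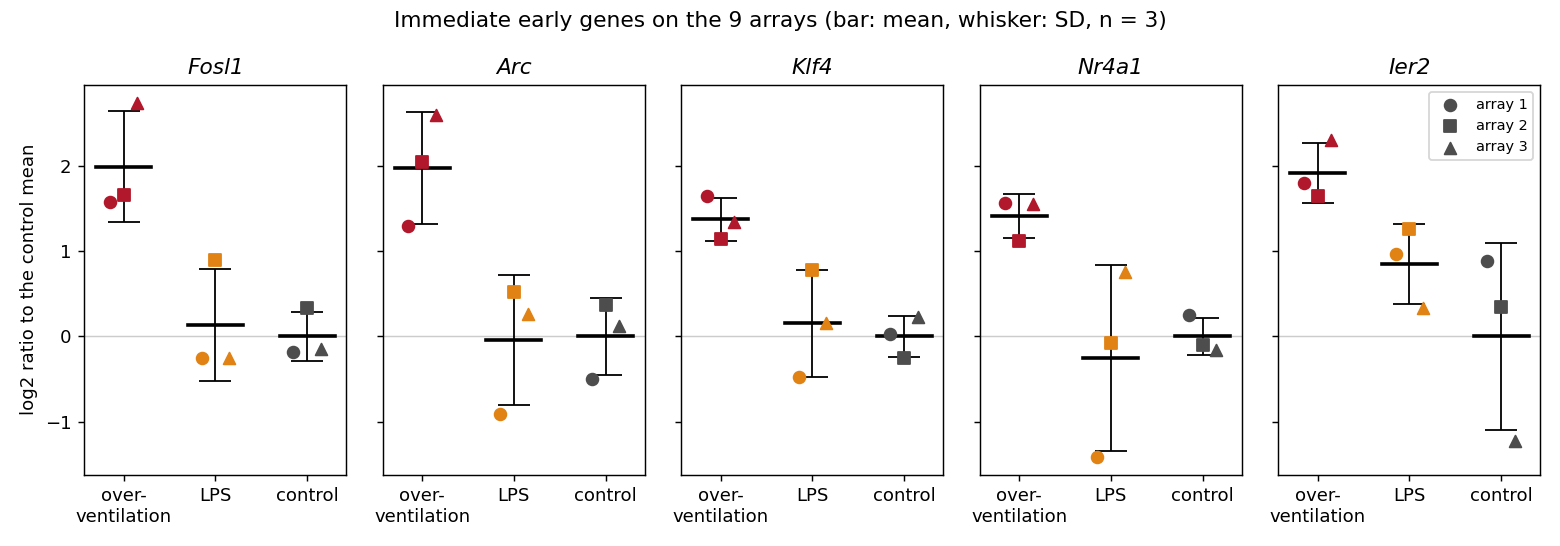
Log2 ratio to the control mean (vertical axis) of the 5 genes on each of the 9 arrays, with overventilation, LPS and control side by side. The symbol gives the array number, the bar the mean and the whisker the SD (n = 3). All overventilation points lie above all others of the same gene, LPS and control points overlap for each gene, and the control point of Ier2 at -1.23 stands alone.

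Fosl1, the AP-1 subunit, lay at 1.57, 1.65 and 2.74 on overventilation arrays 1 to 3. On the LPS arrays it lay at -0.25, 0.89 and -0.25, and on the control arrays at -0.19, 0.34 and -0.15. The lowest overventilation value was thus 0.68 above the highest LPS value and 1.24 above the highest control, the widest of the 5 gaps to control. The group means were 1.99 ± 0.65 after overventilation, 0.13 ± 0.66 after LPS and 0 ± 0.29 in controls (SD, n = 3 each). Overventilation array 3 carried part of the mean, and without it the difference from control was 1.61 on the log2 scale.

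Klf4, the zinc finger factor, lay at 1.64, 1.14 and 1.34 on the overventilation arrays, an SD that with that of Nr4a1 was the smallest of the 5 genes. Its LPS values were -0.47, 0.78 and 0.16, and its control values 0.03, -0.26 and 0.23. The lowest overventilation value was 0.36 above the highest LPS value and 0.91 above the highest control. The means were 1.37 ± 0.25 after overventilation, 0.16 ± 0.63 after LPS and 0 ± 0.24 in controls (SD, n = 3 each). Without overventilation array 3 the difference from control was 1.39 on the log2 scale, and with each of the 9 arrays left out in turn it stayed between 1.24 and 1.49.

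Nr4a1, the nuclear receptor gene, stood at 1.56, 1.12 and 1.55 on the overventilation arrays. On the LPS arrays it spread widely, with -1.41, -0.08 and 0.75, while the controls were close together at 0.25, -0.10 and -0.15. LPS array 1 was the lowest of all 9 arrays for this gene and LPS array 3 the highest outside the overventilation group. The lowest overventilation value was 0.37 above the highest LPS value and 0.87 above the highest control. The means were 1.41 ± 0.25 after overventilation, -0.25 ± 1.09 after LPS and 0 ± 0.22 in controls (SD, n = 3 each). Without overventilation array 3 the difference from control was 1.34.

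The promoter windows of Klf4 and Nr4a1 are shown because these 2 of the 5 genes had one in the RefSeq table used, and because signals of the CREB and AP-1 pathways act on such windows. Each holds the 250 bases before the transcription start, 5′ to 3′ on the gene's strand in build GRCm38.p6, at chr4:55532476-55532725 (minus strand) for Klf4 and chr15:101266596-101266845 (plus strand) for Nr4a1. Capitals mark TGACG, the core of the cAMP response element that CREB binds, which lies on the opposite strand here and so reads as its reverse complement.
Klf4: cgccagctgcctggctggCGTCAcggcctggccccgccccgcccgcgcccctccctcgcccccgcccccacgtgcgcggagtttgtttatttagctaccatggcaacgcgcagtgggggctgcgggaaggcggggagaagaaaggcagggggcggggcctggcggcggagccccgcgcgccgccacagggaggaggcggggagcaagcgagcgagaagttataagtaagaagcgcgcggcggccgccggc
Nr4a1: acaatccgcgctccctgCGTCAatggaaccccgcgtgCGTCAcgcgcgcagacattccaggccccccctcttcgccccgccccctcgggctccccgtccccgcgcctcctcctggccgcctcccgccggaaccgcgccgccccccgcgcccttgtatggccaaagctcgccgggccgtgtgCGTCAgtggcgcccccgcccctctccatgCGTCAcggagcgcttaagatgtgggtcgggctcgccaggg

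Both windows are rich in G and C, with 74.4% in Nr4a1 and 74% in Klf4, against a median of 52.4% over all 32851 windows of the table. All motifs were searched on both strands. The core TGACG occurred at 4 positions in Nr4a1 and at 1 in Klf4, and 17.8% of all windows held at least 1 and 0.137% at least 4. In Nr4a1 all 4 were part of the longer spelling TGACGCA, and they reached to 235, 215, 71 and 42 bases before the start. That spelling was picked after the window had been read. It was found in 1.75% of all windows, and 1 window of the table, that of Nr4a1, held 3 or more. Neither window held the full element TGACGTCA (1.55% of windows), the AP-1 site TGANTCA (6.75%), the CArG box of SRF (1.47%), the TATA box TATAAA (12.4%) or the box CCAAT (33.8%). The EGR site GCGNGGGCG occurred in both (4.7% of windows), at 1 position in Nr4a1 and 2 in Klf4. The GC box GGGCGG of the SP and KLF factors, which can overlap it, was found at 3 positions in Nr4a1 and 4 in Klf4 (32.7% of windows held 1 or more). These matches describe letters and are not evidence that a factor was bound.

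Ier2, the growth factor-induced nuclear protein gene, lay at 1.79, 1.64 and 2.30 on the overventilation arrays. It differed from the other 4 genes in its LPS values of 0.96, 1.25 and 0.34, all above 0. That 0 is the mean of all controls, which the low value of control array 3 pulls down. Without that array the control mean was 0.61, above the lowest LPS value. The controls of Ier2 were the most spread of the genes, with 0.89, 0.34 and -1.23. The last value, on control array 3, stood alone at 1.56 below the next array of any group, and it cannot be told whether it was at the floor of that array, the lowest Ier2 value relative to the arrays' floors. The means were 1.91 ± 0.35 after overventilation, 0.85 ± 0.47 after LPS and 0 ± 1.10 in controls (SD, n = 3 each).

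Without the low value of control array 3, the mean of the other 2 controls was 0.61. The Ier2 difference from control was then 1.30 in place of 1.91 for overventilation and 0.24 in place of 0.85 for LPS. The gaps of the overventilation arrays to the highest control (0.76) and to the highest LPS array (0.39) do not involve that value. On the same array the median of 3 adipose tissue markers was -1.70, against 0.75 and 0.93 on control arrays 1 and 2, while it was -2.12, -5.28 and -1.93 on the LPS arrays and -0.36, -2.21 and -1.19 on the overventilation arrays. The part of this in the Ier2 value was not tested. For the other 4 genes control array 3 lay between -0.15 and 0.23, and leaving it out gave overventilation differences of 1.91 (Fosl1), 2.03 (Arc), 1.49 (Klf4) and 1.33 (Nr4a1).

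Arc, the gene known from synapses, lay at 1.29, 2.04 and 2.59 on the overventilation arrays. Its LPS values were -0.91, 0.52 and 0.26 and its control values -0.49, 0.37 and 0.12. The overventilation values spanned 1.30 log2 units but began 0.77 above the highest LPS value and 0.91 above the highest control. The means were 1.97 ± 0.65 after overventilation, -0.04 ± 0.76 after LPS and 0 ± 0.45 in controls (SD, n = 3 each). Without overventilation array 3 the difference from control was 1.66.

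Other genes of neurons and synapses were mostly out of range or overlapped. Of 10 listed partners of the Arc protein, 8 were measured and 1, Camk2a, was above the floor often enough to be tested. The scaffold gene Homer1 was at the floor on all 9 arrays. Camk2a, a calmodulin-dependent kinase gene named here after its values were seen, lay at 1.29, 0.43 and 0.90 after overventilation, 0.47, 0.04 and -0.55 after LPS and 0.53, 0.00 and -0.53 in controls, so the groups overlapped. Of 8 neuron markers 6 were measured and 4 tested, and Nefm was at the floor on all 9 arrays. The overventilation arrays lay above all controls for 0 of the 4, against 9.18% of all tested genes, so nothing is read from that count. The median of the 4 markers was 0.18, 0.37 and 0.21 on the overventilation arrays, 0.08, 0.25 and -0.36 on the LPS arrays and 0.29, 0.04 and -0.31 on the control arrays.

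The LPS arrays were compared with the controls by limma over all 5710 probes, the one contrast in which the 5 genes were tested. It shares its control arrays with the contrast on which the genes were chosen. At an adjusted p under 0.05 limma called 0 probes, and at an unadjusted p under 0.05 57 probes were higher (0.998%) and 61 lower (1.07%). None of the 5 genes passed (limma adjusted p = 1 for each). The group means differed by less than the spread between replicates for Fosl1, Arc, Klf4 and Nr4a1, with unadjusted p of 0.772, 0.929, 0.683 and 0.628. Ier2 had the largest of the 5 LPS differences with all arrays, 0.85 on the log2 scale with a standard error of 0.53 and an unadjusted p of 0.138. Without control array 3 it was 0.24, below that of Klf4 at 0.27.

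For each gene at least 1 LPS array fell within the range of the controls or below it. Between arrays of the same number, Ier2 was higher after LPS in all 3 pairs, with 0.96 against 0.89, 1.25 against 0.34 and 0.34 against -1.23. The last pair rests on the low value of control array 3. How many other probes were higher in all 3 pairs was not counted, and no label pairs the arrays, so nothing is read from the pairs. With the number as a block the adjusted p of Ier2 in limma was 0.826. A stricter condition, the 3 LPS arrays above the 3 controls whatever their numbers, held for 2.24% of all tested probes. None of the 5 genes met it. The 95% interval of the LPS difference ran from -0.85 to 1.12 in Fosl1, from -1.12 to 1.03 in Arc, from -0.67 to 0.98 in Klf4, from -1.35 to 0.86 in Nr4a1 and from -0.33 to 2.02 in Ier2. The intervals are wide, and the test does not show the genes to be unaffected by LPS. LPS array 1 was the lowest of its group for 4 of the 5 genes, Ier2 being the exception, and LPS array 2 the highest for 4, Nr4a1 being the exception. Without LPS array 1 the differences of Arc and Nr4a1 turned to 0.39 and 0.33, and without LPS array 2 those of Fosl1 and Klf4 turned to -0.25 and -0.16.

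**Figure D2:**
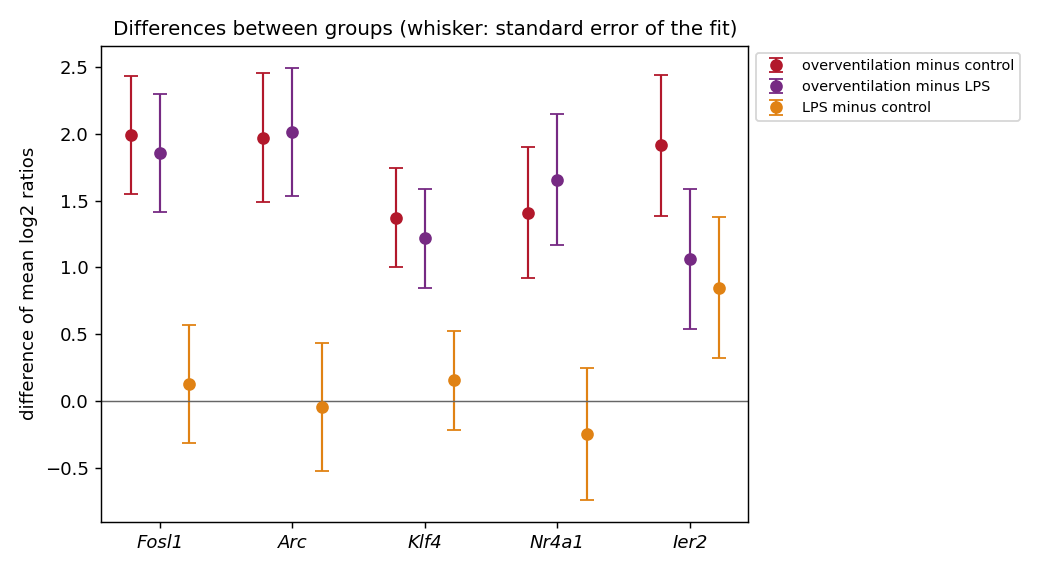
Difference of mean log2 ratios (vertical axis) for each gene, with overventilation minus control, overventilation minus LPS and LPS minus control side by side, and whiskers for the standard error of the limma fit. The overventilation differences run from 1.06 to 2.02 and the LPS differences from -0.25 to 0.85.

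Set against LPS, the overventilated lungs were higher on the log2 scale by 2.02 in Arc (standard error 0.48), 1.86 in Fosl1 (0.44), 1.66 in Nr4a1 (0.49), 1.22 in Klf4 (0.37) and 1.06 in Ier2 (0.53). They are a description as well, since the overventilation arrays also chose the genes. The order of the group means was overventilation, LPS, control for Fosl1, Klf4 and Ier2, and overventilation, control, LPS for Arc and Nr4a1. The neighbours LPS and control overlapped in each gene, and their difference in Ier2, 0.85, was above the SD of the LPS arrays (0.47) and below that of the controls (1.10).

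The 5 genes were not parallel within the overventilation group. Array 3 was the highest for Fosl1, Arc and Ier2, and array 1 for Klf4 and Nr4a1. Array 2 was the lowest for Klf4, Nr4a1 and Ier2, and array 1 for Fosl1 and Arc. Over the 9 arrays the closest pair was Fosl1 and Arc, with a mean absolute difference of 0.33 log2 units, followed by Klf4 and Nr4a1 with 0.39. The least alike pair was Nr4a1 and Ier2, with 0.86.

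For each gene the 3 other named genes with the closest log2 values over the 9 arrays were looked up, by the mean absolute difference. Next to Fosl1 were the tubulin gene Tuba1c (0.23), Spry4, an inhibitor of growth factor signalling (0.26), and Eef1e1, a factor of the tRNA synthetase complex (0.29), where the median over all probes was 0.99. Next to Arc were the cadherin gene Cdh23 (0.25), the adaptor complex gene Ap4b1 (0.26) and again Spry4 (0.28), against a median of 1.05. Spry4 lay at 1.38, 1.47 and 2.96 after overventilation, at -0.20, 0.78 and 0.53 after LPS and at -0.59, 0.49 and 0.10 in controls.

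The gene closest to Klf4 was its family member Klf5 (0.22), followed by the MAPK phosphatase gene Dusp1 (0.23) and the protease gene Prss12 (0.24), against a median of 0.83. Next to Nr4a1 were the glycosyltransferase gene B3galnt1 (0.27), the aldo-keto reductase gene Akr1b8 (0.28) and the keratin gene Krt19 (0.30), against 0.92. Next to Ier2 were Anxa2, a receptor of plasminogen activation (0.29), the proteasome subunit gene Psmd14 (0.31) and the surface antigen gene Cd24a (0.38), against 1.23. Anxa2, Psmd14 and Cd24a were also low on control array 3, at -0.66, -0.73 and -0.73. They were picked for values close to Ier2 on all 9 arrays, that array included. Their low values there follow from the choice and say nothing on the low Ier2 value. These values describe likeness over 9 arrays that share their groups and scaling.

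Within the AP-1 family, 12 of 13 listed subunits were measured and 7 tested. The overventilation arrays lay above all controls for Fosl1, Fosb and Atf3, where 9.18% of all tested genes did so. Atf3, a stress-induced partner of AP-1, lay at 1.58, 1.91 and 4.56 after overventilation, -0.74, 1.05 and 0.97 after LPS and -0.08, -0.08 and 0.16 in controls. Fosb, a Fos paralogue, was higher by only 0.27, with 0.14, 0.20 and 0.47 after overventilation against -0.10 to 0.08 in controls. The Jun subunit gene Jun pointed the other way with -1.96, -0.21 and -0.92 after overventilation, and its controls of -0.35, 0.00 and 0.35 overlapped them. Jund (difference -0.37), Batf (-0.08) and Mafg (0.16) overlapped too.

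Other AP-1 genes lay near the floor and were not tested. Fos, the founding member of the family, was at the floor on 8 of 9 arrays and only 0.09 above it on overventilation array 3. Junb stood above the array's own floor by 0.70, 1.27 and 2.04 on the overventilation arrays, by 0, 0.68 and 0.61 on the LPS arrays and by 0, 0.27 and 0.18 on the control arrays. Since the floors differ between arrays, such heights do not measure a fold change. Fosl2 was at the floor on 3 arrays, Mafk on 3 and Maff on all 9.

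Of the KLF family 11 of 14 members were measured and 9 tested, and overventilation lay above all controls for Klf4, Klf5 and Klf6, 3 of 9 with Klf4 among them by choice, where 9.18% of all tested genes did so. Klf6, an early response gene of injury, had the largest difference among the immediate early genes, 2.95 on the log2 scale. It lay at 1.19, 2.95 and 4.73 after overventilation, 0.51, 2.62 and 1.58 after LPS and -1.10, 1.18 and -0.07 in controls, so overventilation array 1 was barely above the highest control. Klf5, an epithelial growth factor-responsive member, lay at 1.60, 0.89 and 1.28 after overventilation, -0.33, 0.49 and 0.32 after LPS and 0.55, -0.68 and 0.13 in controls. Klf2, which endothelium expresses under shear stress, overlapped, with 1.05, 0.64 and -0.22 after overventilation against -0.11, -0.13 and 0.23 in controls. Klf7, Klf9, Klf10, Klf12 and Klf13 overlapped as well, with differences between -0.41 and 0.16, and Klf3 and Klf15 were near or at the floor. After LPS 0 of the 9 tested members lay above all controls, against 2.32% of all tested genes, so nothing is read from that count.

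In the NR4A family Nr4a1 was picked for its high overventilation values, and its paralogues were not. Nr4a2 lay at 0.90, -0.43 and -0.31 after overventilation and 0.87, -0.84 and -0.03 in controls. Nr4a3 lay at 0.88, -0.05 and -0.43 after overventilation and 0.70, -0.14 and -0.56 in controls. Their overventilation differences of 0.05 and 0.13 were smaller than their standard errors of 0.58 and 0.45. The difference of Nr4a1 was 1.41, but the gene was chosen on it, so nothing is read from the contrast with its paralogues. The differences between the paralogues were not tested. Nr4a2 and Nr4a3 were highest on array 1 in all 3 groups.

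The EGR and IER relatives were mostly out of range. Egr1, the zinc finger gene used most often as an immediate early marker, was at the floor on 7 of 9 arrays and stood 2.19 above it on overventilation array 3 and 0.15 on LPS array 3. Egr3 and Egr4 were at the floor on 8 arrays each. Egr2 overlapped, with 0.37, 1.07 and -0.28 after overventilation and -0.17, 0.21 and -0.04 in controls, as did the EGR corepressor gene Nab2 (difference 0.35). Ier5, a relative of Ier2, stood above the arrays' own floors by 0.46, 2.18 and 2.91 after overventilation and by 0, 1.00 and 0 after LPS, and at the floor on all 3 control arrays.

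Immediate early genes as a list had 47 members, of which 42 were measured and 29 tested. The overventilation arrays lay above all controls for 12 of the 29 (41.4%) and below them for 0, where the shares were 9.18% above and 10.5% below among all 5089 tested genes. The 12 include the 5 genes described here, and of the other 24 tested genes 7 lay above. The list was chosen with earlier results of these data known. Its median difference was 0.71 on the log2 scale (0.61 without the 5 genes), against -0.02 over all tested genes. Of the 13 that were not tested, Btg2, an antiproliferative gene, stood 0.61, 0.85 and 0.38 above the arrays' own floors after overventilation and at the floor on all LPS and control arrays. It does not stand for all 13. Rhob, Homer1 and Maff were at the floor on all 9 arrays, and Egr3 left it only on control array 2.

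**Figure D3:**
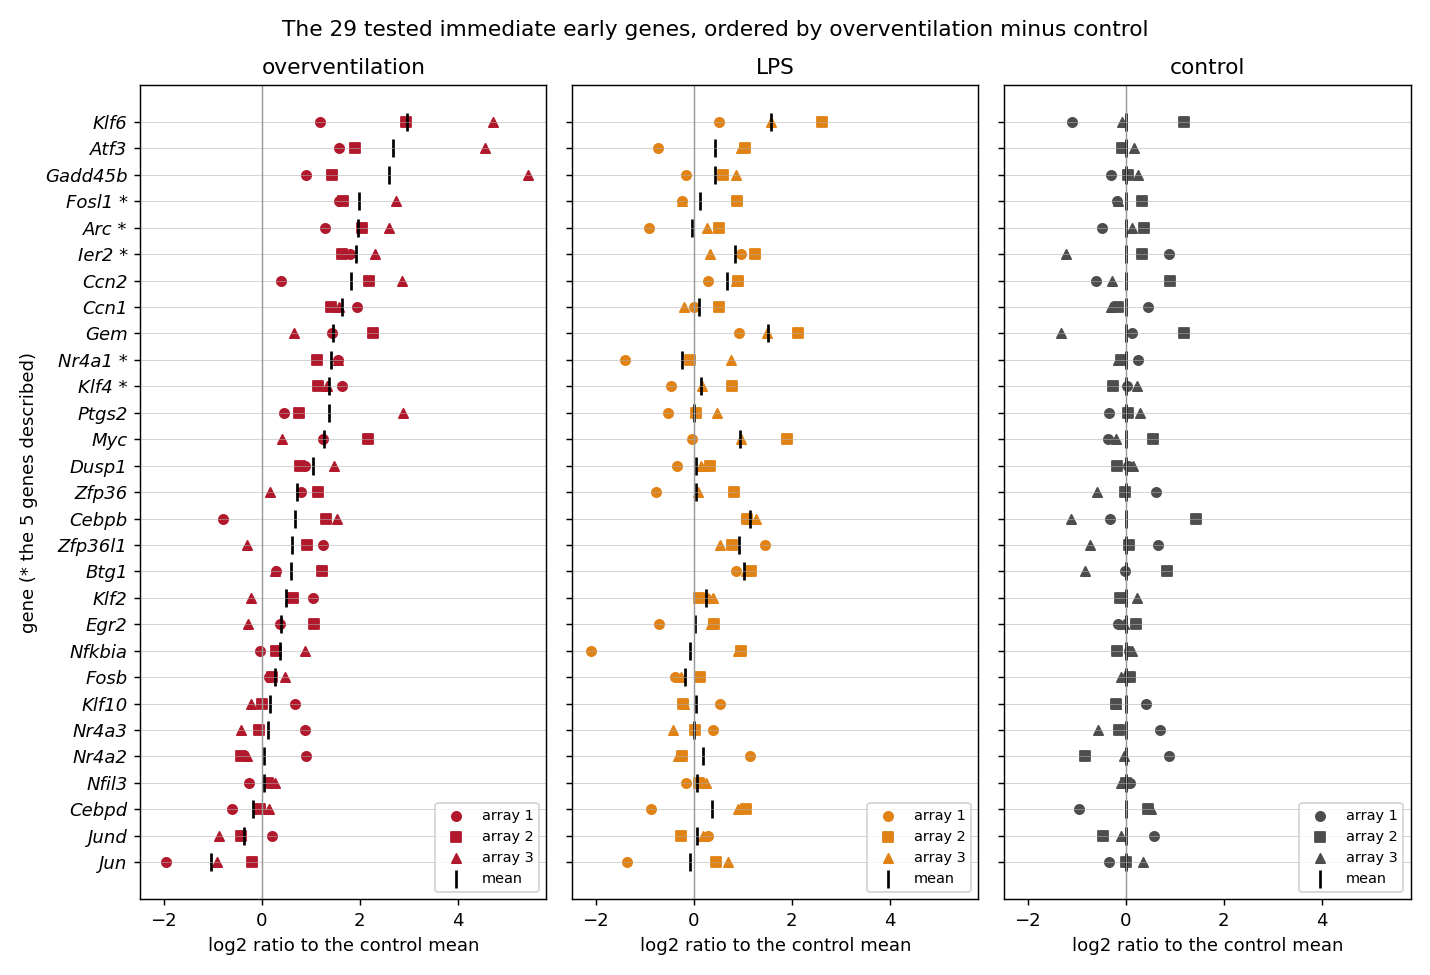
Log2 ratio to the control mean (horizontal axis) of the 29 tested immediate early genes on each array, with panels for overventilation, LPS and control, genes ordered by overventilation minus control, array numbers as symbols and group means as black ticks. Klf6 is at the top with a difference of 2.95 and Jun at the bottom with -1.03, and array 3 gives the highest points of Gadd45b, Klf6 and Atf3 after overventilation.

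The 7 others above all controls were Klf6, Atf3, Gadd45b, Ccn1, Ptgs2, Dusp1 and Fosb. Ccn1, a matricellular protein gene that cell stretch induces, was about even over the overventilation arrays, with 1.95, 1.41 and 1.57 after overventilation, 0.00, 0.52 and -0.20 after LPS and 0.45, -0.16 and -0.29 in controls. Dusp1, which switches off MAP kinases, lay at 0.88, 0.77 and 1.48 after overventilation against -0.19 to 0.14 in controls. In Gadd45b, a stress-induced regulator of MAPK signalling, array 3 with 5.43 stood far above the other overventilation arrays (0.91 and 1.43), and in the prostaglandin synthase gene Ptgs2 with 2.88 above 0.46 and 0.75. The matricellular gene Ccn2, the small GTPase gene Gem and Myc had differences of 1.82, 1.45 and 1.27, but their groups overlapped.

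The list's median on the single arrays was 0.88, 1.12 and 0.65 after overventilation, -0.16, 0.60 and 0.40 after LPS and 0.02, 0.04 and -0.10 in controls. After LPS 1 of the 29 genes lay above all controls, against 2.32% of all tested genes, and the median difference was 0.13. That gene was Btg1, an antiproliferative relative of Btg2, with 0.85, 1.16 and 1.06 after LPS and -0.02, 0.85 and -0.83 in controls. Without LPS array 1, which was low for many of these genes, 12 of the 29 lay above all controls, against 12.4% of all tested genes. Without overventilation array 3 the overventilation count was 18, against 11.3% of all tested genes.

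Of the gene lists that follow, each count of genes above all controls after overventilation stands against 9.18% of all tested genes. Among factors that act upstream of immediate early genes, 8 of 14 listed SRF and CREB factors and cofactors were measured and 3 tested. Srf itself was at the floor on all control and LPS arrays and on overventilation array 1, and stood 0.97 and 1.96 above it on overventilation arrays 2 and 3. Crem, which encodes both activators and the inducible repressor of cAMP responses, lay at 1.69, 1.38 and 2.29 after overventilation, -0.37, 1.40 and 0.95 after LPS and -0.59, 0.54 and 0.05 in controls. Of 9 tested genes of the MAPK cascades 1 lay above all controls after overventilation, a share near that 9.18%. It was Map2k3, a kinase that activates p38, with 1.47, 2.36 and 4.25 against -0.28 to 0.55 in controls. After LPS it lay at -0.05, 2.13 and 0.93, so those arrays overlapped both other groups.

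Downstream, 7 of 14 listed AP-1 targets were tested and 3 lay above all controls after overventilation (9.18% of all tested genes). They were the chemokine gene Ccl2 (difference 2.87), the urokinase receptor gene Plaur (2.28) and, named after its values were seen, the cytokine gene Il6 (2.23). After LPS 1 of the 7, Ccl2, lay above all controls too (1.58, 2.34 and 1.31), against 2.32% of all tested genes. Plaur lay at 4.65, -0.72 and 1.23 after LPS and Il6 at -0.79, -3.43 and 1.41, and both overlapped the controls. Of 9 genes listed as targets of KLF4 in endothelium 4 were tested, and Vcam1, a leukocyte adhesion molecule, lay above all controls with 1.54, 2.27 and 3.45 after overventilation, 0.16, 1.55 and 1.06 after LPS and -0.17, 0.77 and -0.60 in controls.

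Lung tissue holds many cell types, and in RNA of the whole tissue fewer cells of a type and less RNA per cell cannot be told apart. Among 51 tested markers in 13 lists, the overventilation arrays lay above all controls for 6 and below them for 4, near the shares of 9.18% and 10.5% over all tested genes. Of the 6 alveolar type II markers 0 lay above and 1 below, the protease gene Napsa (difference -2.13). That list was mixed, with a higher mean after overventilation for 2 of the 6, Sftpd (1.87) and Sftpc (0.74). Both overlapped the controls and are given here after their values were seen. The list median was 0.33, -0.82 and -0.05 after overventilation, 0.56, -0.08 and -0.53 after LPS and 0.26, -0.04 and 0.07 in controls. Of 8 endothelial markers 5 were tested and 0 lay above or below, Cdh5 did not leave the floor on any array and Pecam1 only on 1, with a list median of 0.19, -0.01 and 0.05 on the overventilation arrays, 0.37, -0.36 and -0.56 on the LPS arrays and 0.27, -0.09 and -0.05 on the control arrays. Of 4 tested macrophage and monocyte markers 1, Lyz2, lay above all controls, and the mean after overventilation was higher for 2 of the 4. The list median was -0.24, 0.40 and 0.11 after overventilation, 0.38, 1.11 and -0.39 after LPS and 0.06, 0.09 and -0.15 in controls, and Adgre1 was at the floor on all 9 arrays. The alveolar type I markers had the highest list median, with Ager and Cav1, 2 of 4, above all controls. Their median was 0.51, 0.45 and 3.06 after overventilation, 0.25, 1.00 and 0.58 after LPS and -0.02, 0.11 and -0.45 in controls. The part of these markers in the values of the 5 genes was not tested.

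**Figure D4:**
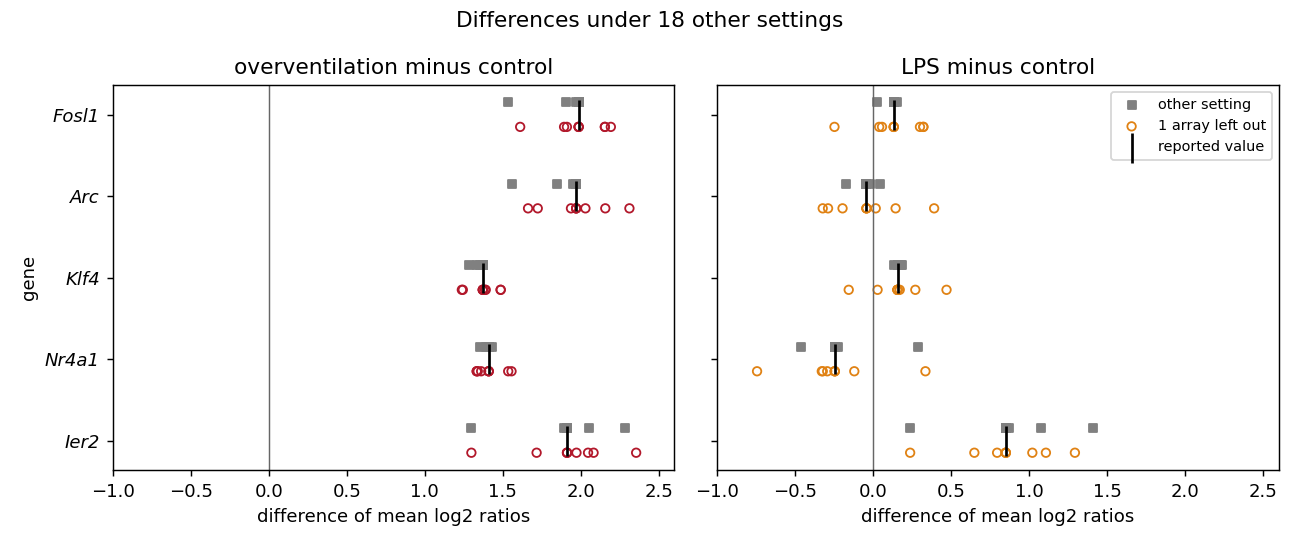
Difference of mean log2 ratios (horizontal axis) of the 5 genes under 18 other settings, with overventilation minus control on the left and LPS minus control on the right. Squares are other ways of processing, circles leave out 1 array, and the black tick is the value reported. All overventilation differences stay between 1.24 and 2.36, and the LPS differences of Fosl1, Arc, Klf4 and Nr4a1 lie on both sides of 0.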

How the data were processed

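RNA of mouse lung tissue was measured on 9 arrays, 3 each of overventilation, LPS and control. The deposited values are linear ratios, and in every probe the mean of the 3 control log2 values is 0 (largest deviation 2.49e-09). Array maker, dyes, background correction and scaling are not stated in the labels or files, and no depth applies to arrays, whose number limits the precision. At 4690 of 10012 probes, 2 or more arrays stood at the floor (tolerance 1e-06 on the log2 scale). There, log2 values were raised to the probe's highest floor, which is 1.15 plus a constant of that probe, and the control mean was subtracted once more. Probes above that floor on 3 or more arrays, or with no 2 arrays at a floor, were tested (5710 probes, 5089 genes). The 5 genes belong to the second kind and keep their deposited values.

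The test was that of limma 3.58.1 under R 4.3.3 (lmFit with the 3 groups, eBayes, two-sided, Benjamini-Hochberg over all probes, threshold 0.05), without a block (the block is an alternative), and checked on simulated data. Correlations of same-numbered arrays' deviations were 0.497, 0.247 and 0.199 for LPS and control, over 0.1 in each pair. The numbers may therefore pair these arrays, which no label states. For overventilation and control the correlations were 0.508, 0.133 and 0.0334. Where a gene had several probes, the one above the floor most often was used. The 5 genes, all lists and the naming rule were chosen with earlier results of these data known. The rule named the 5 genes, measured relatives, other immediate early genes, at most 2 genes of any other list without overlap, and 3 genes alike in pattern. Symbols came from the platform annotation (1 symbol for 8983 probes, several for 1, none for 1028), and gene IDs of 8975 probes matched RefSeq. No build is named for the arrays. Promoter windows are RefSeq's, GRCm38.p6, and those of Fosl1, Arc and Ier2 are not used here. Alternatives changed the floor, filter, scaling, array weights, lone low values, replicate block and the arrays kept.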

Additional observations from a re-analysis of the deposited data

How the results depend on the processing

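Over the 18 alternatives the overventilation differences from control ran from 1.53 to 2.19 in Fosl1, 1.56 to 2.31 in Arc, 1.24 to 1.49 in Klf4, 1.33 to 1.56 in Nr4a1 and 1.30 to 2.36 in Ier2. Leaving out arrays or lone low values cannot close the gap between groups, and the floor, filter, weight and block settings leave these genes' array values as they are. Only quantile normalization and centring could narrow the gaps, while leaving out an array could widen them. For Ier2 the smallest gap to an LPS array was 0.02, with quantile normalization. The LPS difference of Ier2 from control ran from 0.24 to 1.41, and those of the other 4 genes took both signs. That of Arc was 0.042 and that of Nr4a1 0.29 with array weights, and with 1 array left out they ran from -0.32 to 0.39 for Arc, -0.75 to 0.33 for Nr4a1, -0.25 to 0.32 for Fosl1 and -0.16 to 0.47 for Klf4. Adjusted p for the LPS differences lay between 0.674 and 1. The overventilation median of the immediate early list was 0.95 with quantile normalization and 1.01 with array weights, and 0.49 to 1.13 with 1 array left out, lowest without overventilation array 2 and highest without array 1. The count of those genes above all controls, an alternative chosen after seeing the data, ran from 12 to 18. With 1 array left out, limma called 0 to 290 probes for overventilation against control, 0 to 1 for LPS against control and 0 to 226 for overventilation against LPS, the highest of the first and last without overventilation array 2 and of the second without control array 3. With the replicate block the differences were as reported (1.99 for Fosl1, 0.85 for Ier2 after LPS), 0 probes were called in each contrast and no call changed. With all 9 arrays limma called 0 probes for overventilation against control, and 354 were higher and 496 lower at an unadjusted p under 0.05, while against LPS it called 0, with 204 higher and 339 lower. The cause of these shifts was not tested. For 1 array of each gene, the lowest, a value at the floor cannot be told from one above it.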
